A study of Rattus norvegicus with 39 samples.

Results

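The genes that encode the enzymes of the mevalonate pathway up to squalene were followed in rat liver. The members were the probe sets annotated to 8 gene symbols, Acat2, Hmgcs1, Mvk, Pmvk, Mvd, Idi1, Fdps and Fdft1. Of these, 7 genes were measured, through 11 probe sets, among 14217 genes in all. No probe set carried the name Hmgcs1 in the annotation used, and that gene was not analysed here. Where several probe sets carried a gene's name, the brightest on average was used.

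The mevalonate pathway joins units of acetyl-CoA into mevalonate, phosphorylates it and turns it into isopentenyl diphosphate. That compound and its isomer are the building blocks of farnesyl diphosphate, from which cells make sterols, the lipid tails of prenylated proteins, dolichol and ubiquinone. In liver the pathway feeds cholesterol and bile acid synthesis, and its genes are known targets of the SREBP transcription factors, which act together with NF-Y, bound at CCAAT boxes, and with Sp1, bound at GC boxes.

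RNA from the left lateral liver lobe of rats 5 to 6 weeks old was hybridised to Affymetrix rat expression arrays, and 39 arrays were analysed. Each of the 6 treated groups had 5 arrays, and livers were taken 48 h after the dose. ANIT was given by mouth at 125 mg/kg in corn oil, Caerulein intraperitoneally at 50 µg/kg in saline, and DMN by mouth at 15 mg/kg in water. DNP was given by mouth at 15 mg/kg in water, NMF intraperitoneally at 1000 mg/kg in saline, and Roziglitazone, so spelled in the labels, by mouth at 1000 mg/kg in methylcellulose. The control group had 9 arrays of rats labelled as untreated. A compound, its vehicle and its route thus cannot be told apart in a comparison with them, and all such comparisons share the same 9 arrays. ANIT is the usual short name of alpha-naphthylisothiocyanate, known for injuring bile ducts and stopping bile flow, and DMN that of dimethylnitrosamine, known for injury around the central veins.

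The promoters of the 4 genes that passed the test in ANIT livers, given below, are shown because the members moved together and because the motifs of the partner factors can be read in them. RefSeq promoter entries (build GRCr8), from 250 bases before to 50 bases after the transcription start, matched 5 of the 7 measured genes, namely Acat2, Mvk, Mvd, Idi1 and Fdps. Capitals mark CCAAT and GGGCGG on either strand (ATTGG and CCGCCC on the other one), and each sequence runs 5′ to 3′ on the gene's own strand.
Acat2 (chr1:50100590-50100889, plus strand): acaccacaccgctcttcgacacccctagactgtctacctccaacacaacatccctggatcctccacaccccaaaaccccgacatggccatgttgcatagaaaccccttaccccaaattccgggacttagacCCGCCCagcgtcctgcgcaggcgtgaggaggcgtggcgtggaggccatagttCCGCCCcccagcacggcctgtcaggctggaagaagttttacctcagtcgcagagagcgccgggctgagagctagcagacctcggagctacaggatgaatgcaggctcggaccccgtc
Mvk (chr12:47819454-47819753, minus strand): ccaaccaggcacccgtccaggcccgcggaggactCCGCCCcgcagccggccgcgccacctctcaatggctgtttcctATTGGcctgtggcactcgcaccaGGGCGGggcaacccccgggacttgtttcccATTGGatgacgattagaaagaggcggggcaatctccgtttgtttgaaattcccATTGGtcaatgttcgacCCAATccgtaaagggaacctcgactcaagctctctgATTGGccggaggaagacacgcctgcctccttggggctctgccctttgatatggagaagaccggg
Mvd (chr19:67414925-67415224, minus strand): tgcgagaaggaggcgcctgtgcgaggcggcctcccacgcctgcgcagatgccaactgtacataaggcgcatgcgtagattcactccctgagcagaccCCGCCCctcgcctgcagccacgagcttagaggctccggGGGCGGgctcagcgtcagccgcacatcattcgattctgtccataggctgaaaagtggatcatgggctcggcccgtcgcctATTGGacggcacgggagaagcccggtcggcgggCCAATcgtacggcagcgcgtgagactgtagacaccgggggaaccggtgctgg
Idi1 (chr17:66547475-66547774, minus strand): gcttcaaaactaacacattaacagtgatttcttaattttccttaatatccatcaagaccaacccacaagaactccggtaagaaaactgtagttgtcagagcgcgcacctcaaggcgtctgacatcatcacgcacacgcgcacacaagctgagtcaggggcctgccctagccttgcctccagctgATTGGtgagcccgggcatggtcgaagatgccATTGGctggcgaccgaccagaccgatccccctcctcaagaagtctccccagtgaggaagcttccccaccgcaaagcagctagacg

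CCAAT stood in 4 of the 5 member promoters, against 37.5% of 33469 rat promoters of the same length. Mvk held 5 copies, Mvd, Idi1 and Fdps held 2 each, and Acat2 held none. GGGCGG stood in 4 of the 5, against 33.1% of all promoters, with 2 copies each in Acat2, Mvk and Mvd, 1 in Fdps and none in Idi1. In Mvk the CCAAT copy nearest to the start lay at position −14 and the farthest at −173. In Idi1 both copies, at −66 and −35, read ATTGG on the printed strand. No copy overlapped one of another motif. A strict form of the sterol regulatory element, TCACNCCAC, was found in none of the 5 windows and in 1.12% of all promoters. A match here is a description of letters and not a bound site. The shares over so few as 5 promoters were not tested, nor was a link of these motifs to the member levels.

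Values are log2 intensities, taken here from the deposited linear intensities. They are compared between groups and never between genes, because the probes of different genes differ in brightness. The linear intensities ran from 5.4 to 23152.1, with a mean per array of 347.8 to 363.4 and a median of 77.8 to 108.7. The lowest level of any member on any array was 6.56. In bulk liver, fewer cells of a type and less RNA per cell cannot be told apart. Hepatocyte markers were high on every array, with a summed log2 level of 16.58 to 16.73 in ANIT, 16.53 to 16.72 in DMN, 16.51 to 16.61 in NMF and 16.29 to 16.71 in control livers. Such a sum is set mostly by its brightest genes and can hide a fall of 1 marker, given below for DMN and NMF. It does not show that the number of hepatocytes was unchanged. Biological replicates are numbered in the labels, which do not say more of their source.

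Doubt was raised by 3 arrays, ANIT 3, Roziglitazone 2 and DMN 2, named in earlier results of these data. The results that rest on them are given also for the 36 arrays left without them. These 3 were thus chosen after the data were seen. Leaving them out narrows the spread shared by all groups, so calls among the 36 arrays follow in part from that choice. Each array's deviation from the mean of all arrays was set against those of the groups, over all genes. ANIT 3, as labelled, came closer to DMN (r = 0.705) than to ANIT (r = 0.301). Roziglitazone 2, as labelled, came closest to ANIT (r = 0.802), with r = −0.303 to the remaining Roziglitazone arrays. DMN 2, as labelled, had r = 0.00344 with the remaining DMN arrays. The measure does not single DMN 2 out, since Roziglitazone 1 (r = −0.221), control 5 (r = −0.086) and DNP 1 (r = −0.0612) came lower with their own groups and stayed among the 36 arrays. Of all 39 arrays 15 were matched best by their own group. In 8 arrays the GAPDH control probe sets were brighter at the 3′ end than at the 5′ end by more than 1 log2 unit. These differences ran from 1.37 in control 1 to 6.07 in DMN 3. The 8 include Roziglitazone 1, control 5 and DNP 1 but none of the 3 doubted arrays, and DMN 2 was at 0.117.

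Mevalonate pathway genes were higher in ANIT livers than in untreated livers. In limma, 4 of the 7 genes rose (adjusted p under 0.05, here called) and none fell, where 8.19% of all 14217 genes rose and 8.29% fell. The called genes were Acat2, Mvk, Mvd and Idi1, with rises of 2.39-fold to 5.13-fold. All 7 were higher on average, with a median log2 fold change of 1.26, against −0.09 over all genes. The array labelled ANIT 3 was below the control mean in all 7 genes and each of the other 4 ANIT arrays was above it in all 7. Without the 3 doubted arrays all 7 genes rose (8.9% of all genes), with a median log2 fold change of 1.69, against −0.06 over all genes. In 6 of them, all but Fdps, the 4 remaining ANIT arrays then lay above every control, as did 4.96% of all genes.

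**Figure D1:**
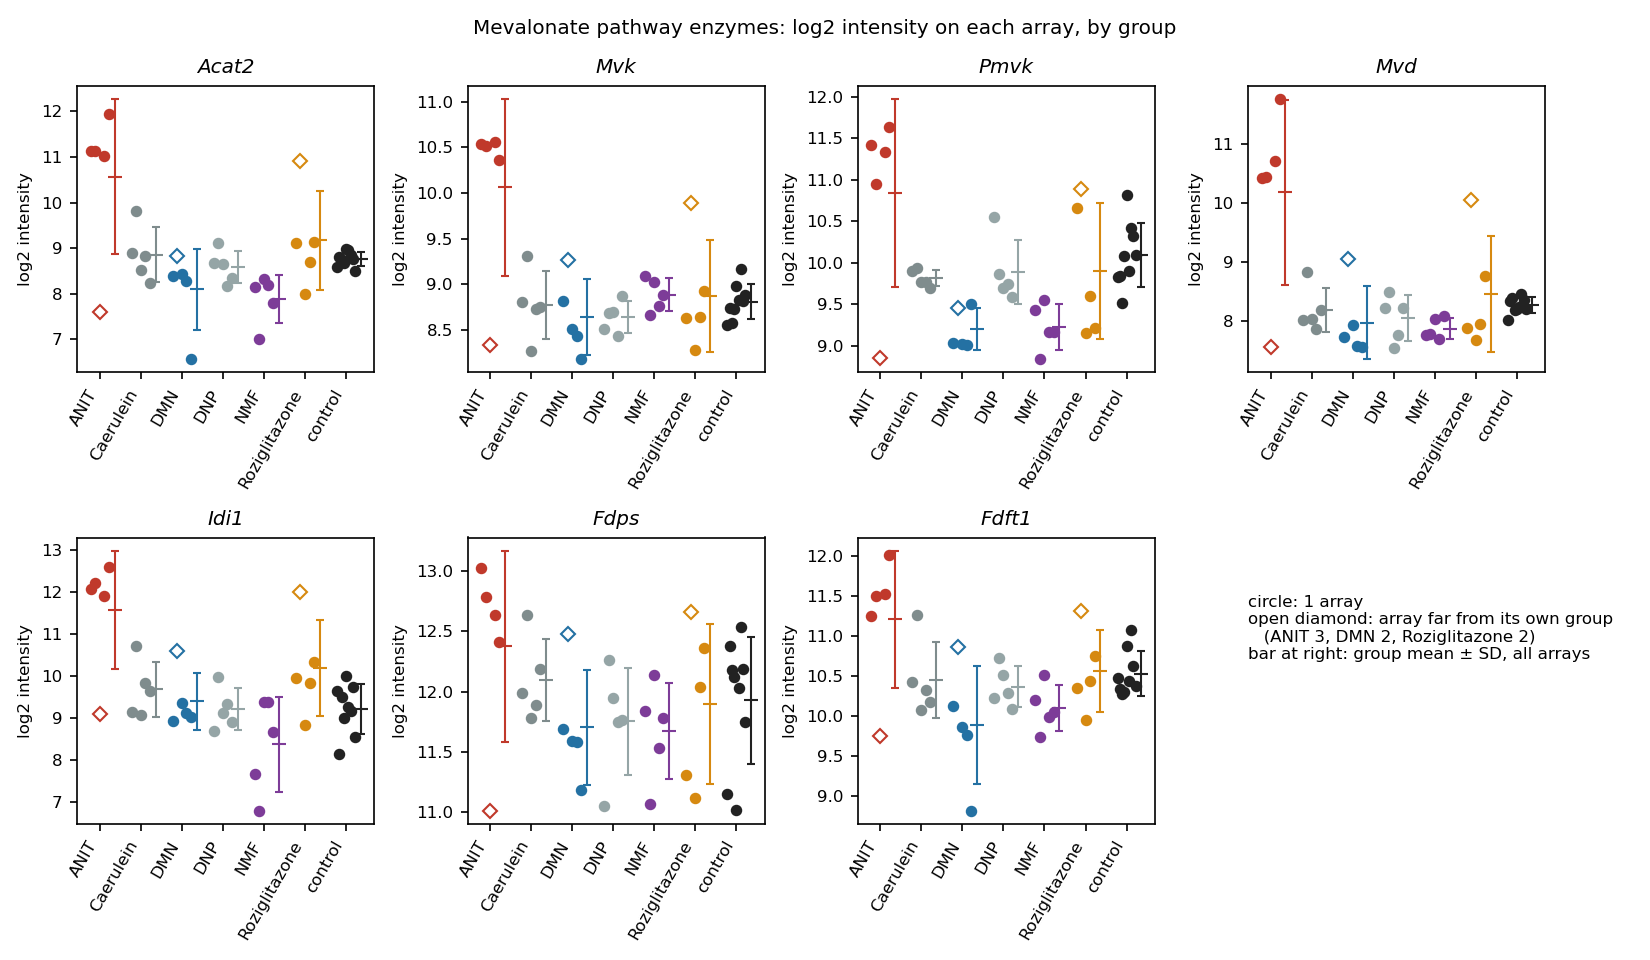
Log2 intensity of each of the 7 genes (1 panel a gene, each with its own vertical scale) on each of the 39 arrays by group, with the group mean ± SD of all arrays at the right of the points. Open diamonds are the arrays labelled ANIT 3, DMN 2 and Roziglitazone 2. In every panel 4 ANIT arrays lie at the top of the plot or near it, while ANIT 3 lies low.

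Acat2 encodes the cytosolic acetoacetyl-CoA thiolase that joins the first pair of acetyl-CoA units. Its log2 intensity was 11.13, 11.14, 7.59, 11.02 and 11.95 on ANIT arrays 1 to 5, against 8.50 to 8.98 with a median of 8.75 in the controls. Thus 4 ANIT arrays lay above every control and ANIT 3 lay below every control. The mean was 10.57 ± 1.70 (SD, n = 5) in ANIT and 8.76 ± 0.16 (SD, n = 9) in control livers, a 3.49-fold difference (log2 fold change 1.80 ± 0.44 SE, limma adjusted p = 0.00428). With the doubted arrays left out it was 5.85-fold (2.55 ± 0.29, adjusted p = 4.35e-08). The lowest group mean of Acat2 was that of NMF, within the spread of the DMN mean. The NMF arrays were at 8.14, 7.003, 8.33, 8.18 and 7.79 on arrays 1 to 5, all below the lowest control, but the difference was not called (−0.87 ± 0.44, adjusted p = 0.269). Of all genes 1.81% had NMF arrays entirely below the controls. Without the 8 arrays of high GAPDH 3′ signal the ANIT call was lost (1.45, adjusted p = 0.0524). The Acat2 probe set could take signal from the related gene Acat2l1 and from the Acat2 pseudogenes in the RefSeq gene table, which was not tested.

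Mvk encodes mevalonate kinase, which adds the first phosphate to mevalonate. Its level on the ANIT arrays was 10.54, 10.52, 8.33, 10.56 and 10.36, against 8.55 to 9.17 with a median of 8.82 in controls. Apart from ANIT 3, which was below every control, the ANIT arrays lay close together and above every control. Mvk averaged 10.06 ± 0.97 in ANIT and 8.81 ± 0.19 in control livers, a 2.39-fold rise (1.26 ± 0.25 SE, limma adjusted p = 6.48e-04). It was 3.22-fold without the doubted arrays (1.69 ± 0.15, adjusted p = 2.52e-10). The other probe sets annotated to Mvk were dimmer and disagreed with it. Their log2 fold changes in ANIT were 0.75 (adjusted p = 0.200) for one and −0.34 (adjusted p = 0.169) for the other, when every probe set was tested on its own. With the mean over all probe sets the Mvk call was lost (log2 fold change 0.55, adjusted p = 0.0557).

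Pmvk encodes phosphomevalonate kinase, which adds the next phosphate. Its level on the ANIT arrays was 11.42, 10.95, 8.86, 11.33 and 11.63, against 9.51 to 10.82 with a median of 10.08 in controls. The 4 higher ANIT arrays lay above every control, and ANIT 3 below every control. The mean difference of 0.75 ± 0.30 SE was not called (limma adjusted p = 0.0824). It was 1.24 ± 0.22 and called without the doubted arrays (adjusted p = 9.83e-05), and without control 5 alone, the highest control, it was also called (0.84, adjusted p = 0.0467). In DMN livers Pmvk was at 9.03, 9.45, 9.02, 9.01 and 9.50 on DMN arrays 1 to 5, each below every control, where 0.985% of all genes had DMN arrays entirely below the controls.

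Mvd encodes mevalonate diphosphate decarboxylase, which yields isopentenyl diphosphate. Its level was 10.42, 10.44, 7.55, 10.71 and 11.76 on the ANIT arrays, against 8.01 to 8.46 with a median of 8.23 in the controls. As with Acat2, ANIT 3 was below every control and the other 4 were above every control. Mvd averaged 10.18 ± 1.57 in ANIT and 8.26 ± 0.14 in control livers, a rise of 3.77-fold (1.91 ± 0.38 SE, limma adjusted p = 5.26e-04). Leaving out the doubted arrays gave 5.94-fold (2.57 ± 0.20, adjusted p = 2.07e-11). Outside ANIT the highest array was the one labelled Roziglitazone 2, at 10.05, and the next was that labelled DMN 2, at 9.05.

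Idi1 encodes isopentenyl diphosphate isomerase, which supplies the allylic partner needed for chain building. Its level was 12.07, 12.23, 9.11, 11.91 and 12.61 on the ANIT arrays, against 8.15 to 10.01 with a median of 9.28 in the controls. ANIT 3 lay within the controls here and the other 4 arrays lay above all of them. Idi1 averaged 11.59 ± 1.41 in ANIT and 9.23 ± 0.59 in control livers, and its rise of 5.13-fold was the largest among the members (2.36 ± 0.47 SE, limma adjusted p = 5.50e-04). Leaving the doubted arrays out gave 7.88-fold (2.98 ± 0.37, adjusted p = 3.08e-07). A further Idi1 probe set gave a log2 fold change of 2.63 ± 0.49 (adjusted p = 3.45e-04) when every probe set was tested on its own, where 6.2% of all probe sets rose, and followed the first one across the 39 arrays (r = 0.946). A pseudogene, Idi1-ps1, is in the RefSeq gene table, and its share in the signal was not tested.

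Fdps encodes farnesyl diphosphate synthase, which builds the branch point of sterol and non-sterol isoprenoids. Its level was 13.03, 12.79, 11.01, 12.64 and 12.41 on the ANIT arrays, against 11.02 to 12.54 with a median of 12.12 in the controls. Of the ANIT arrays 3 lay above every control, and ANIT 3 lay just below the lowest one. The difference of 0.45 ± 0.29 SE was not called (limma adjusted p = 0.290) and was 0.79 ± 0.25 without the doubted arrays (adjusted p = 0.0286). The spread within the controls was wide, at 11.15 in control 1 and 11.02 in control 5 but at least 11.75 in the others. Among the 8 arrays of high GAPDH 3′ signal Fdps was at 11.15 (control 1), 11.02 (control 5), 11.05 (DNP 1) and 11.31 (Roziglitazone 1), but at 12.41 (ANIT 5), 11.59 (DMN 3), 12.14 (NMF 3) and 12.12 (control 4). Outside these 8, Roziglitazone 3 was low as well, at 11.12, with a GAPDH difference of 0.249. The part of RNA quality in these values was not tested. Several Fdps pseudogenes stand in the RefSeq gene table, and their share in the signal was not tested either.

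Fdft1 encodes squalene synthase, the first enzyme committed to sterols. Its level was 11.25, 11.50, 9.75, 11.53 and 12.02 on the ANIT arrays, against 10.27 to 11.08 with a median of 10.44 in the controls. Again 4 ANIT arrays were above every control and ANIT 3 below every control. The difference of 0.68 ± 0.27 SE was not called (limma adjusted p = 0.0813). Fdft1 rose 2.07-fold without the doubted arrays (1.05 ± 0.21, adjusted p = 6.18e-04). A further, dimmer Fdft1 probe set followed the first one across all arrays (r = 0.812). When every probe set was tested on its own, it gave 0.41 ± 0.28 in ANIT (limma adjusted p = 0.339), against 0.68 for the first one. In DMN it gave −0.80 ± 0.28 (adjusted p = 0.0752), against −0.65 for the first one. None of these changes was called.

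ANIT had the highest mean of the 7 groups for each member. Of the 42 steps between neighbouring group means, 6 for each gene, 3 were larger than the larger SD of the groups they separate. They were ANIT above NMF for Mvk, ANIT above Roziglitazone for Mvd, and Caerulein above NMF for Pmvk. Neighbours in every other step, among them ANIT and Roziglitazone for Idi1 at 11.59 ± 1.41 and 10.20 ± 1.15, did not differ beyond their spread. Among the 36 arrays 7 steps exceeded the larger SD, and each was that from ANIT to the next group of a gene. With all 39 arrays the lowest mean was that of NMF for Acat2, Mvd, Idi1 and Fdps and that of DMN for Mvk, Pmvk and Fdft1, while among the 36 arrays DMN was the lowest for Mvd and Fdps too.

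**Figure D2:**
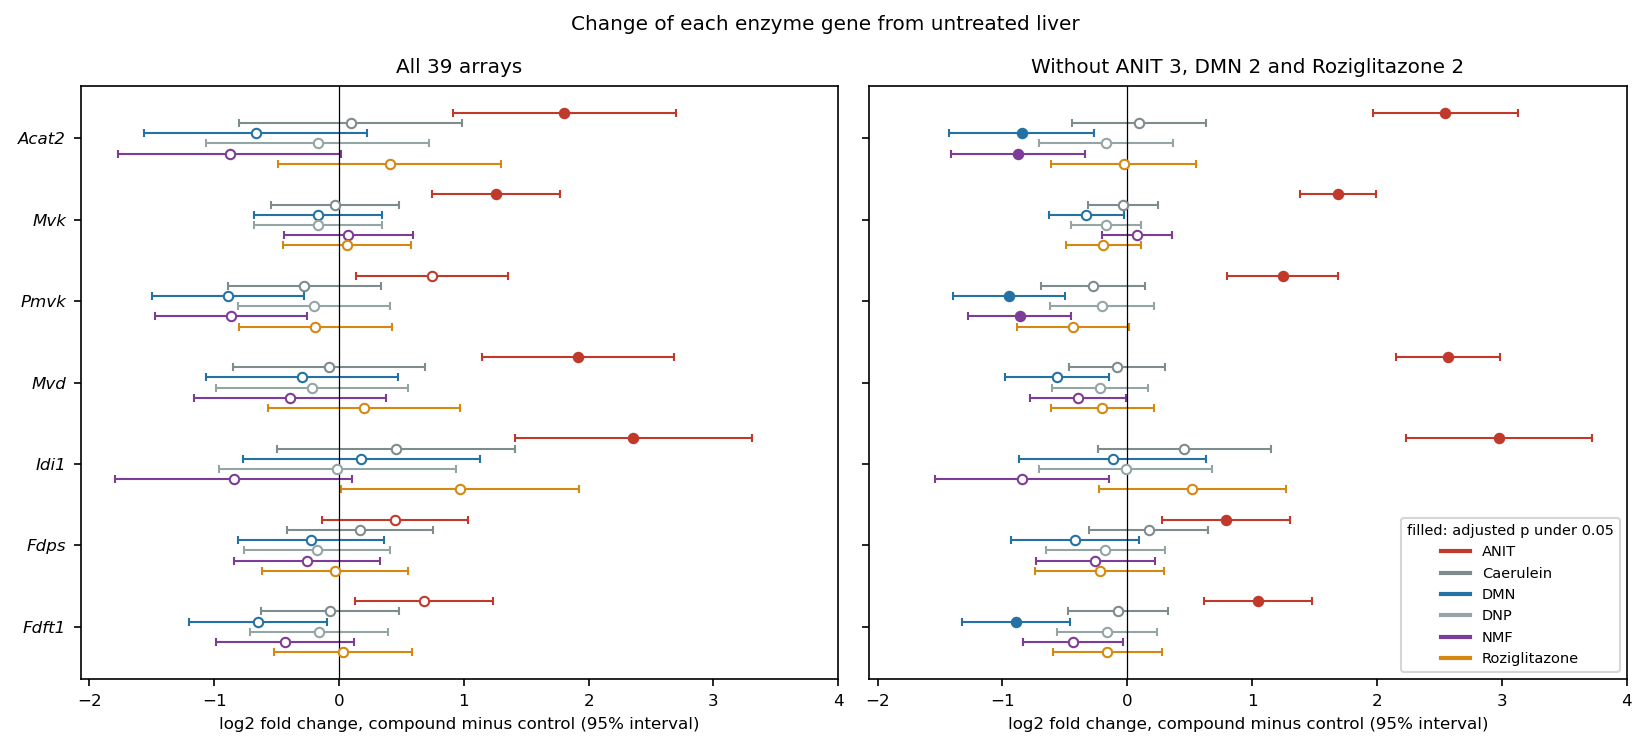
Log2 fold change of each gene against control with its 95% interval, for the 6 compounds, in all 39 arrays (left) and without ANIT 3, DMN 2 and Roziglitazone 2 (right). Filled points have an adjusted p under 0.05: 4 ANIT genes at the left, and at the right 7 ANIT genes, 3 lower DMN genes and 2 lower NMF genes.

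In DMN livers 6 of the 7 genes were lower on average than in controls, with a median log2 fold change of −0.29 against −0.06 over all genes, but none was called in limma, where 10.4% of all genes were called in either direction. At an unadjusted p under 0.05 there were 2, Pmvk and Fdft1, beside 23.2% of all genes. Pmvk averaged 9.20 ± 0.25 (SD, n = 5) in DMN and 10.09 ± 0.39 (SD, n = 9) in control livers (log2 fold change −0.89 ± 0.30 SE, adjusted p = 0.0522). The array labelled DMN 2 was the exception among the DMN arrays: 6 genes were above the control mean on it, against at most 1 on any other DMN array.

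Among the 36 arrays, a set chosen after the data were seen, 3 genes fell in DMN, where 6.3% of all genes fell. Pmvk fell by 0.95 ± 0.22 (limma adjusted p = 0.00247), Fdft1 by 0.89 ± 0.21 (adjusted p = 0.00346) and Acat2 by 0.85 ± 0.29 (adjusted p = 0.0417). All 4 remaining DMN arrays lay below every control in Acat2, Pmvk, Mvd and Fdft1, as in 2.82% of all genes. Acat2 was lowest on DMN 5, at 6.56, and Fdft1 on the same array, at 8.81. With all arrays, where 5.87% of all genes rose and 4.53% fell, cell markers of other kinds moved in DMN as well. All 6 dividing-cell markers rose, with a summed log2 level of 10.01 to 11.97 in DMN and 8.96 to 9.61 in control livers, and 3 of 4 neutrophil markers rose, with 8.25 to 12.77 in DMN and 8.36 to 10.11 in controls. Of 5 endothelial markers 3 fell, at 11.20 to 12.03 in DMN and 11.20 to 12.74 in controls. These 3 counts were the same among the 36 arrays, where 7.56% of all genes rose and 6.3% fell. With all arrays 1 of 5 cholangiocyte markers rose and 1 fell, and 1 of 3 erythroid markers rose. There 1 of 7 hepatocyte, 1 of 5 macrophage, 1 of 6 stellate and 1 of 5 pancreatic acinar markers fell, and no lymphocyte marker was called. Among the 36 arrays 2 erythroid markers and 1 lymphocyte marker rose, and 1 stellate marker rose and 2 fell. Their part in the lower member levels was not tested.

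NMF livers had lower means than controls in 6 of the 7 genes, with a median log2 fold change of −0.43 against −0.05 over all genes. None was called in limma, where 7.48% of all genes were called, and 1 gene, Pmvk, had an unadjusted p under 0.05, as did 19.6% of all genes. Pmvk was at 9.42, 8.84, 9.55, 9.16 and 9.16 on NMF arrays 1 to 5, of which 4 lay below every control (−0.86 ± 0.30 SE, adjusted p = 0.0751). Idi1 was uneven, at 7.68, 6.80, 9.39, 9.39 and 8.66, so that 2 arrays lay below every control and 3 within them (−0.84 ± 0.47, adjusted p = 0.332). Mvk was the exception, at 8.88 ± 0.18 in NMF and 8.81 ± 0.19 in control livers. NMF itself holds no doubted array, but with those left out of the shared spread Acat2 (adjusted p = 0.0326) and Pmvk (adjusted p = 0.00461) were called lower, where 4.2% of all genes fell. Cell markers in NMF were counted with all arrays, where 3.85% of all genes rose and 3.63% fell. Of 5 macrophage markers 2 fell, with a summed log2 level of 11.65 to 12.25 in NMF and 12.06 to 12.57 in control livers. Of 6 stellate markers 3 fell, at 10.96 to 11.42 in NMF and 11.74 to 12.78 in controls. Of 3 erythroid markers 2 fell, at 11.13 to 12.04 in NMF and 11.88 to 13.51 in controls. Of 7 hepatocyte and 5 pancreatic acinar markers 1 each fell, and 1 of 5 cholangiocyte markers rose. The part of other cells in the NMF levels was not tested.

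Caerulein, DNP and Roziglitazone had no member called against control, and 0% of all genes was called in each of these comparisons in limma. At an unadjusted p under 0.05 there were no members in Caerulein or DNP and 1 in Roziglitazone, beside 3.81% of all genes in Caerulein, 1.4% in DNP and 7.34% in Roziglitazone. That member was Idi1, at 9.96, 12.00, 8.85, 9.84 and 10.35 on Roziglitazone arrays 1 to 5 (0.97 ± 0.47 SE, adjusted p = 0.676). The highest of these was the array labelled Roziglitazone 2, and without the doubted arrays the log2 fold change was 0.52 (adjusted p = 0.809). The 95% intervals of the 7 log2 fold changes lay between −0.89 and 1.41 in Caerulein and between −1.06 and 0.94 in DNP, so changes of up to about these sizes could not be told from 0.

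The mean over the 7 genes, as a log2 difference from the control mean, puts the arrays side by side. It was 1.75, 1.71, −0.77, 1.73 and 2.16 on ANIT arrays 1 to 5, against −0.20 to 0.30 on the 9 control arrays. The array labelled Roziglitazone 2 was at 1.44, in reach of the ANIT arrays, while the other Roziglitazone arrays ranged from −0.66 to 0.27. DMN 2 was at 0.41 and the other DMN arrays were at −0.97 to −0.42. NMF arrays ranged from −1.10 to −0.09, so 4 of the 5 were below every control. Among the rest Caerulein 2 stood out at 0.70, where 6 of the 7 genes were above the control mean, and the other Caerulein arrays were at −0.30 to −0.05.

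**Figure D3:**
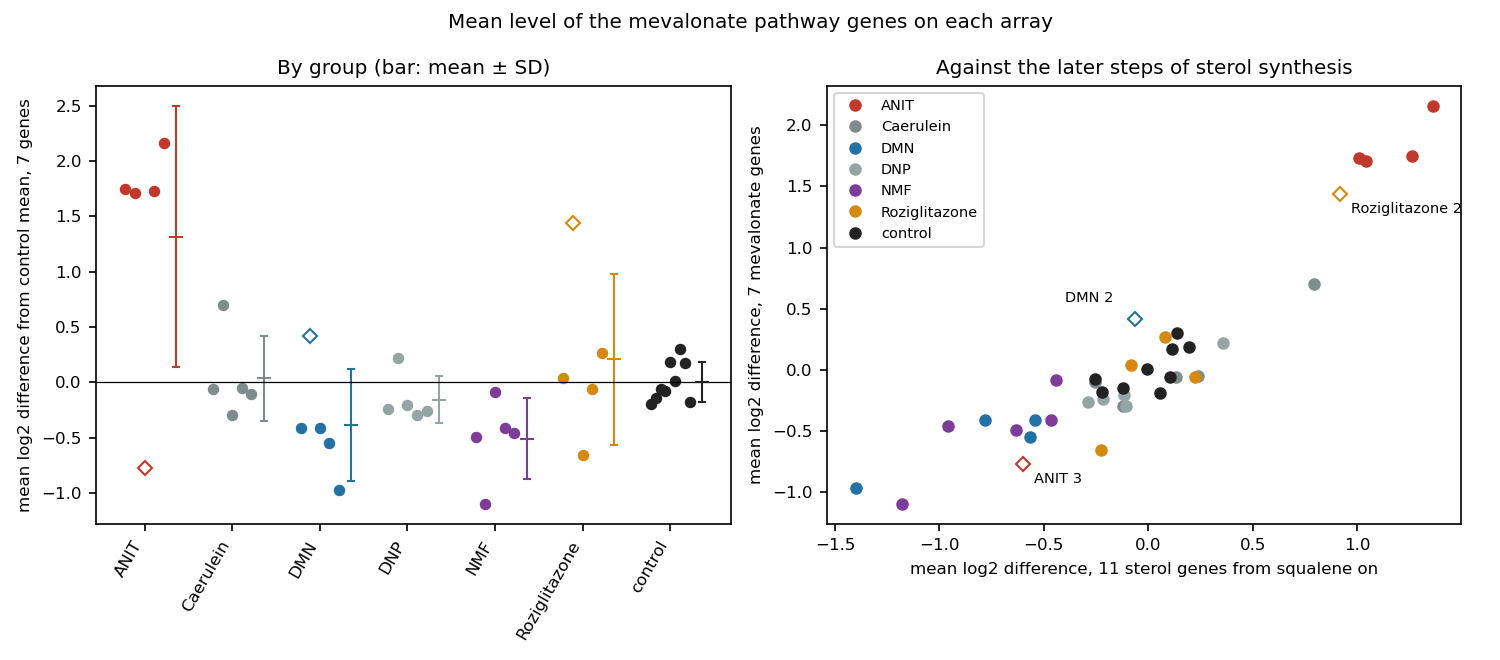
Mean log2 difference of the 7 genes from the control mean on each array, by group with mean ± SD (left) and against the same mean over 11 genes of sterol synthesis from squalene on (right). Open diamonds are ANIT 3, DMN 2 and Roziglitazone 2. At the right the 4 other ANIT arrays and Roziglitazone 2 lie at the upper end, and DMN 5 and NMF 2 at the lower end.

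ANIT and DMN were also compared directly, a comparison chosen from earlier results of these data, in which both had been set against control. In limma 6 of the 7 genes were higher in ANIT, all but Fdps, where 1.46% of all genes were higher. Acat2 averaged 10.57 ± 1.70 in ANIT and 8.10 ± 0.88 in DMN livers (log2 fold change 2.47 ± 0.50 SE, adjusted p = 0.00631). Mvd differed by 2.21 ± 0.43 (adjusted p = 0.00593) and Idi1 by 2.18 ± 0.53 (adjusted p = 0.0211). With the doubted arrays left out all 7 were higher (4.08% of all genes), from 1.21 for Fdps (adjusted p = 0.00742) to 3.40 for Acat2 (adjusted p = 1.24e-08). The calls rest on the spread shared by all groups: fitted to the ANIT and DMN arrays alone, neither a member nor any other gene was called. Without the 8 arrays of high GAPDH 3′ signal none of the members was called either, and without ANIT 5 alone 3 of the 6 were. ANIT was given in corn oil and DMN in water.

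The compounds given in the same vehicle by the same route could be compared without that difference. Between DMN and DNP, both in water by mouth, no member was called in limma, where 6.89% of all genes were called. No member had an unadjusted p under 0.05 either, where 21.2% of all genes did. Pmvk came nearest, at 9.20 ± 0.25 in DMN and 9.89 ± 0.38 in DNP livers, and its arrays did not overlap (−0.69 ± 0.34 SE, adjusted p = 0.239). Of all genes 2.35% had DMN arrays entirely below the DNP arrays. Among the 36 arrays Pmvk (adjusted p = 0.0428) and Fdft1 (adjusted p = 0.0420) were lower in DMN, where 5.19% of all genes were lower.

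Between NMF and Caerulein, both in saline by intraperitoneal injection, no member was called, where 5.49% of all genes were called in limma. At an unadjusted p under 0.05 there was 1 member, Idi1, beside 17.4% of all genes. Idi1 was at 8.39 ± 1.13 in NMF and 9.69 ± 0.66 in Caerulein livers (−1.30 ± 0.53 SE, adjusted p = 0.170). Pmvk arrays did not overlap, at 8.84 to 9.55 in NMF and 9.70 to 9.93 in Caerulein (−0.59 ± 0.34, adjusted p = 0.398), as for 3.05% of all genes. Without the doubted arrays, none of which is in these groups, Idi1 (adjusted p = 0.0356) and Acat2 (adjusted p = 0.0437) were lower in NMF, where 2.63% of all genes were lower.

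The 7 genes varied together across arrays. Over the 39 arrays the 21 pairs had correlations of 0.477 to 0.920, with a median of 0.783, the lowest between Pmvk and Fdps and the highest between Mvk and Mvd. After subtraction of the group means the median was 0.744. These are descriptions over arrays that share groups and scaling. Outside the members, the 10 genes that followed the mean of the standardised member levels most closely over the 39 arrays were Msmo1 (r = 0.898), Erg28 (0.894), Hsd17b7 (0.871), Ebp (0.843), Sqle (0.842), Elovl6 (0.819), Lsr (0.811), Tmem254 (0.810), Tprg1l (0.803) and Cyp51 (0.796). Of these, Msmo1, Hsd17b7, Ebp, Sqle and Cyp51 encode enzymes of later sterol synthesis, Erg28 is known in yeast as an anchor of sterol demethylation enzymes, and Elovl6 encodes a fatty acid elongase. After subtraction of the group means their correlations ran from 0.657 for Lsr to 0.884 for Msmo1, and over 36 arrays from 0.793 to 0.889.

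Genes of later sterol synthesis, from squalene on, were counted in the same comparisons. Of 11 genes measured, 5 rose and none fell in ANIT, where 8.19% of all genes rose and 8.29% fell. Their median log2 fold change was 0.71, against −0.09 over all genes. Sqle, the squalene epoxidase gene, rose 3.93-fold (1.98 ± 0.42 SE, limma adjusted p = 0.00102). Hsd17b7 rose 2.56-fold (adjusted p = 0.0464), Lss, the lanosterol synthase gene, 2.27-fold (adjusted p = 0.00861) and Msmo1, the sterol methyl oxidase gene, 2.13-fold (adjusted p = 0.0350). In DMN 5 of the 11 fell and none rose, where 4.53% of all genes fell, with a median of −0.65, against −0.06 over all genes. Cyp51, the lanosterol demethylase gene, fell by 1.15 ± 0.31 (adjusted p = 0.0135), Tm7sf2, a sterol reductase gene, by 0.997 ± 0.267 (adjusted p = 0.0119) and Dhcr7, of the last reduction, by 0.82 ± 0.27 (adjusted p = 0.0470). Sqle averaged 9.14 in DMN and 9.12 in control livers. In NMF 2 of the 11 fell, where 3.63% of all genes fell, with a median of −0.68 against −0.05 over all genes, Cyp51 by 1.18 ± 0.31 (adjusted p = 0.0139) and Lss by 1.04 ± 0.32 (adjusted p = 0.0365). Without the doubted arrays the counts were 8 higher in ANIT, 7 lower in DMN and 8 lower in NMF. Of all genes 8.9% were then higher in ANIT, 6.3% lower in DMN and 4.2% lower in NMF. Directly between ANIT and DMN, with all arrays, 9 of the 11 were higher in ANIT, where 1.46% of all genes were higher.

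The genes of sterol sensing and SREBP processing were counted next. Of 8 measured, 1 rose and 1 fell in ANIT, where 8.19% of all genes rose and 8.29% fell. Scap, whose product escorts SREBP out of the endoplasmic reticulum, rose 1.53-fold (0.61 ± 0.19 SE, limma adjusted p = 0.0222). Insig2, which holds that escort back, fell by 1.35 ± 0.22 (adjusted p = 5.00e-05). Its ANIT arrays lay entirely below the controls, as for 3.01% of all genes. Insig2 fell in DMN too, by 0.92 ± 0.22 (adjusted p = 0.00506). Stard4, a cytosolic sterol carrier gene, fell by 1.09 ± 0.28 in DMN (adjusted p = 0.00794) and by 1.28 ± 0.28 in NMF (adjusted p = 0.00200). Thus 2 of the 8 fell in DMN and 1 in NMF, where 4.53% and 3.63% of all genes fell. The SREBP genes themselves were not called in ANIT, with log2 fold changes of −0.35 for Srebf1 (adjusted p = 0.453) and 0.45 for Srebf2 (adjusted p = 0.184), nor was Insig1 (0.99 ± 0.47, adjusted p = 0.144). Among the 36 arrays Srebf2 was called higher in ANIT (0.67 ± 0.22, limma adjusted p = 0.0326), so that 2 of the 8 rose and 1 fell. Of all genes 8.9% then rose and 7.06% fell.

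**Figure D4:**
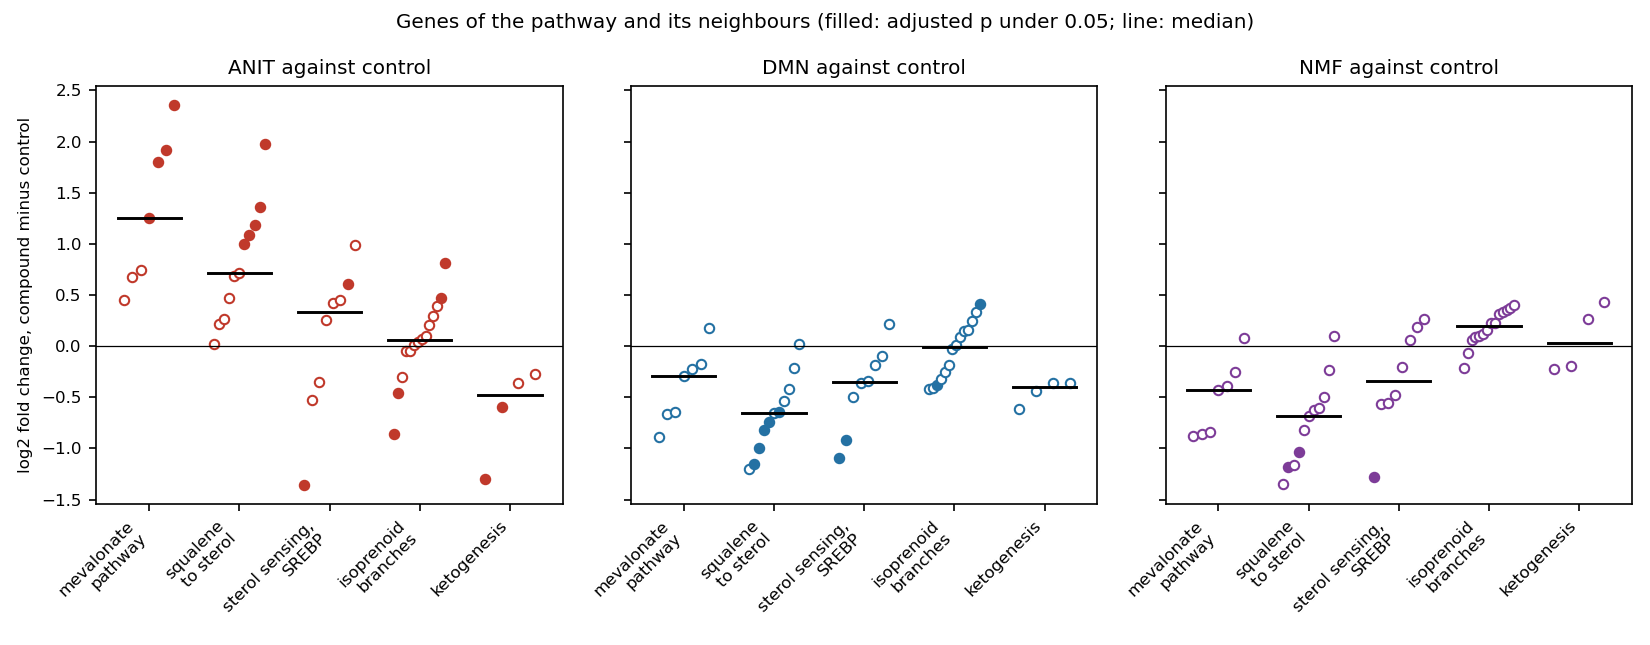
Log2 fold change against control of the 7 mevalonate genes and of 11, 8, 14 and 4 measured genes of neighbouring lists, in ANIT, DMN and NMF (all 39 arrays). Filled points have an adjusted p under 0.05 and the line is the list's median, which in ANIT is 1.26 for the mevalonate genes and 0.06 for the isoprenoid branches.

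Genes of the branches that use farnesyl diphosphate for other ends were counted as well. Of 14 measured, 2 rose and 2 fell in ANIT, where 8.19% of all genes rose and 8.29% fell. The median log2 fold change of the 14 was 0.06. The farnesyltransferase subunit gene Fnta rose 1.76-fold (0.82 ± 0.13 SE, limma adjusted p = 5.11e-05) and Rabggtb, of the Rab prenyl transferase, rose 1.39-fold (adjusted p = 0.0182). Pggt1b, of the other protein prenyl transferase, fell by 0.86 ± 0.25 (adjusted p = 0.0151), and Pdss2, which takes part in making the ubiquinone tail, by 0.46 ± 0.11 (adjusted p = 0.00402). In DMN Fnta was higher and Pdss2 lower, where 5.87% of all genes rose and 4.53% fell. In NMF none of the 14 was called, where 7.48% of all genes were called. There 12 of the 14 were above 0, with a median of 0.19, against −0.05 over all genes. Between NMF and Caerulein 2 of the 14 were higher in NMF and none lower, where 3.43% of all genes were higher.

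Ketone body synthesis uses acetoacetyl-CoA in mitochondria, and 4 genes of its list were measured. In ANIT 2 of them fell and none rose, where 8.29% of all genes fell and 8.19% rose. Bdh1, the hydroxybutyrate dehydrogenase gene, fell by 1.30 ± 0.28 (limma adjusted p = 0.00120) and Acat1, the mitochondrial thiolase gene, by 0.60 ± 0.21 (adjusted p = 0.0480), where Acat2 rose 3.49-fold. None of the 4 was called in DMN or NMF with all arrays. Without the doubted ones 3 fell in DMN, where 6.3% of all genes fell.

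Cell markers in ANIT are given beside these counts, where 8.19% of all genes rose and 8.29% fell. Of 6 dividing-cell markers 2 rose, with a summed log2 level of 9.59 to 11.81 in ANIT and 8.96 to 9.61 in control livers. Of 7 hepatocyte markers 1 rose and none fell, and of 5 cholangiocyte markers 1 rose and 1 fell, with 9.51 to 10.50 in ANIT and 9.07 to 10.02 in controls. Of 5 pancreatic acinar markers 3 fell, with 8.10 to 9.46 in ANIT and 9.50 to 10.68 in controls. Of 5 endothelial markers 2 fell, with 10.95 to 11.87 in ANIT and 11.20 to 12.74 in controls. Of 5 macrophage and 6 stellate markers 1 each fell, and no neutrophil, lymphocyte or erythroid marker was called. Among the 36 arrays the calls were 1 dividing-cell marker higher, 1 acinar and 1 endothelial marker lower, with hepatocyte, cholangiocyte and macrophage counts as before. Of the stellate markers 1 rose and 1 fell there. Of all genes 8.9% then rose and 7.06% fell. The part of other cells in the member levels was not tested.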

How the data were processed

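The authors deposited 1 probe set intensity per array on a linear scale; per the submitters' processing notes RMA and the affy package were used, with no version given, and a step back from the log2 scale is not given in the sources used here. The log2 was taken here, although the plan had assumed deposited log2 values. Of 31099 probe sets, 57 controls were kept apart, 20826 had 1 gene symbol in the platform annotation, 436 had several and 9780 none. For 20758 of these the current symbol was read from the RefSeq gene table by gene ID. The probe set with the highest mean stood for each of the 4525 genes with several, which left 14217 genes and no filter on dim ones.

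A linear model with a mean for each of the 7 groups was run in limma 3.58.1 (R 4.3.3) over the 39 arrays, with moderated variances. The Benjamini-Hochberg adjustment ran over the 14217 genes of a comparison, and adjusted p-values under 0.05 were called. The fit was tested on simulated data. The members, gene lists, comparisons and tests were chosen with earlier results of these data known. All members were named, with every array for those called, and in other lists up to 4 called genes with the largest change per comparison; Sqle in DMN, Srebf1, Srebf2 and Insig1 were named after their values were seen. The markers were lists of 3 to 7 measured genes per cell type.

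Replicate numbers were checked as pairs. In none of the 9 comparisons did all 5 same-numbered pairs correlate above 0.1 in their deviations, so numbers were not used. Alternatives were median centring, a further quantile normalization, a filter on the dimmest 30% of genes, other probe set rules, array weights, trend and robust eBayes, the replicate block, fits to 2 groups alone, and leaving out arrays. The number of arrays limits the precision.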

Additional observations from a re-analysis of the deposited data

Results flagged for a closer look

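In each group of each gene it was asked whether 1 array lay far from the others by Dixon's gap criterion. Of 49 groups tested 8 had such an array. Chance alone flags about 1 in 20 of independent tests. The 7 genes share the same arrays and vary together, so the count of 8 cannot be set against that rate. The array labelled ANIT 3 was low in 4 genes. Acat2 was at 7.59 on it and at 11.02 to 11.95 on the other ANIT arrays, Mvk at 8.33 against 10.36 to 10.56, Pmvk at 8.86 against 10.95 to 11.63, and Idi1 at 9.11 against 11.91 to 12.61. The array labelled DMN 2 was high in 2 genes, with Mvd at 9.05 against 7.56 to 7.93 on the other DMN arrays and Idi1 at 10.59 against 8.94 to 9.36. On DMN 5, Acat2 was low, at 6.56 against 8.27 to 8.82. On DNP 1, where GAPDH was brighter at its 3′ end by 2.75 log2 units, Pmvk was high, at 10.55 against 9.59 to 9.87 on the other DNP arrays. The causes were not tested.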

How the results depend on the processing

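None of the 10 called member changes, 4 in ANIT against control and 6 in ANIT against DMN, reversed under any of 11 alternatives or with 1 array left out. Of 110 values under the 11 alternatives 95 stayed called and 15 did not, and of 116 with 1 array left out 107 stayed called. The cause of the changes below was not tested. For most settings the share of all genes called is not given. The counts below thus show only how the calls depend on the setting, not how members compare with all genes. In ANIT against control 7 members were called with array weights and 7 without the 3 doubted arrays, and 4 to 7 with 1 array left out, 7 being without ANIT 3. Leaving out the arrays of high GAPDH 3′ signal was, like leaving out the doubted ones, a choice made after seeing the data. It lost Acat2 in ANIT against control (log2 fold change 1.45, limma adjusted p = 0.0524), and in ANIT against DMN it left 0 called. There, the fit to 2 groups alone left 0 and 1-array omissions 3 to 7, the 3 being without ANIT 5. In DMN against control the count was 1, Pmvk, with quantile normalization, without the dimmest 30% of genes, with array weights, with trend and robust eBayes and in the 2 groups alone, 3 without the doubted arrays, and 0 to 2 with 1 array left out (2 without DMN 2, 1 without control 3). In NMF against control it was 3 with array weights, 2 in the 2 groups alone and 2 without the doubted arrays. In NMF against Caerulein it was 2 with array weights, 1 in the 2 groups alone and 2 without the doubted arrays, and in DMN against DNP 2 without the doubted arrays.

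With the replicate number as a block, 4 members were again called in ANIT against control and 6 in ANIT against DMN, and no call changed; 3 log2 fold changes near 0 turned their sign, Mvk (0.058) and Fdft1 (0.0051) in Caerulein and Fdps in Roziglitazone (0.13). All other reversals, too, were of changes not called. Median centring turned Fdps in Roziglitazone to 0.047 and, in DMN against DNP, Mvk to 0.16, Mvd to 0.082 and Fdps to 0.11; it moved none of 49 group levels by more than 1 SD. The mean over probe sets turned Mvk in Caerulein (0.18), Roziglitazone (−0.042), DMN against DNP (0.00078) and NMF against Caerulein (−0.075), and Fdft1 in Roziglitazone (−0.046). Array weights turned Mvk (0.043), Mvd (0.00032) and Fdft1 (0.12) in Caerulein, Idi1 in DNP (0.10), Mvk (−0.12), Mvd (−0.034) and Fdft1 (−0.081) in Roziglitazone, and Idi1 in DMN against DNP (−0.041). Without the doubted arrays Idi1 was −0.12 in DMN, Acat2 −0.029, Mvk −0.19, Mvd −0.20 and Fdft1 −0.16 in Roziglitazone, and Idi1 −0.11 in DMN against DNP. Without the arrays of high GAPDH 3′ signal Fdps was −0.079 in Caerulein and Idi1 0.28 in DNP.

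With 1 array left out at a time, 15 of the changes not called took both signs. In Caerulein, Acat2 ran from −0.14 to 0.25, Mvk from −0.17 to 0.092 and Fdft1 from −0.28 to 0.023. In Roziglitazone, Acat2 ran from −0.029 to 0.70, Mvk from −0.19 to 0.21, Mvd from −0.20 to 0.40, Fdps from −0.22 to 0.16 and Fdft1 from −0.16 to 0.18. Idi1 ran from −0.12 to 0.29 in DMN and from −0.21 to 0.12 in DNP. In DMN against DNP, Mvk ran from −0.16 to 0.11, Mvd from −0.35 to 0.036, Idi1 from −0.11 to 0.38 and Fdps from −0.24 to 0.082, and in NMF against Caerulein Mvk from −0.016 to 0.25.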
